A study of Mus musculus with 8 samples.

Results

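The V0 sector of the vacuolar H+-ATPase (V-ATPase) was followed through its 9 subunit genes Atp6v0a1, Atp6v0a2, Tcirg1, Atp6v0b, Atp6v0c, Atp6v0d1, Atp6v0d2, Atp6v0e and Atp6v0e2, taken by symbol from the 20207 genes of the files. Atp6v0e2 was chosen by its RPKM (reads scaled by exon length and library depth), which was high in stem cells of mice with chronic myeloid leukaemia (CML) and low in normal haematopoietic stem cells (HSCs) and CML KLS- cells. Those values are therefore described here without a test. The other members were taken by name as its companions in the sector, so the leukaemia comparison was tested for them.

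RNA-seq was performed on 8 libraries of bone marrow cells, with an estimated depth of 17.77 to 23.85 M reads. Normal mice, described in the study's methods as littermates with Tal1-tTA alone, gave 2 LT-HSC libraries (long-term HSCs, labelled 2 and 6 months), 1 of short-term HSCs (ST-HSCs, 2 months) and 1 of KLS- progenitors (2 months). CML-affected mice carried Tal1-tTA and TRE-BCR-ABL1 and gave 2 libraries of LT-CML stem cells, 1 of ST-CML stem cells and 1 of CML KLS- progenitors, with no age in the labels. The Tal1-driven tTA induces BCR-ABL1 in stem and progenitor cells once doxycycline is withdrawn. LT cells were sorted as CD150+CD48-CD135- and ST cells as CD150-CD48-CD135- from the KLS+ gate (cKit+Lineage-Sca-1+), and KLS- cells lacked Sca-1. The labels name C57BL/6 for each sample whereas the study's methods describe FVB/N transgenic littermates, so the strain behind each library was not settled here. Normal libraries of both labelled ages were compared with CML libraries whose labels give no age. The study's methods state the same age range for the normal and the CML-affected mice used for sorting, and the label of 6 months lies above that range. How many mice were pooled in a library is not given in the sources used here.

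The V-ATPase is a rotary proton pump that acidifies lysosomes, endosomes and secretory vesicles. Its cytosolic V1 sector hydrolyses ATP, and its V0 sector in the membrane conducts protons. In V0, the large subunit a (Atp6v0a1, Atp6v0a2 and Tcirg1, the a3 form that osteoclasts need to resorb bone) holds the proton half-channels against a rotating ring of the proteolipids c (Atp6v0c) and c'' (Atp6v0b). Subunit d (Atp6v0d1, and the osteoclast form Atp6v0d2) couples the ring to V1, and subunit e (Atp6v0e and its paralogue Atp6v0e2) is a small hydrophobic protein beside subunit a. The lysosomal pump is also part of the machinery by which amino acids activate mTORC1.

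The subunit e paralogues are separate genes. In mm9 with the GENCODE M1 annotation, Atp6v0e2 (ENSMUSG00000039347) lies on the plus strand at chr6:48487568-48491797 with 1 transcript of 1832 exonic bases, and Atp6v0e (ENSMUSG00000015575) on the plus strand at chr17:26813341-26836589 with 2 transcripts. Both coding sequences have 246 bases and encode 81 residues. Their full coding sequences are shown because the results turn on telling the transcripts apart, with capitals at the positions where the base differs from the paralogue.
Atp6v0e2: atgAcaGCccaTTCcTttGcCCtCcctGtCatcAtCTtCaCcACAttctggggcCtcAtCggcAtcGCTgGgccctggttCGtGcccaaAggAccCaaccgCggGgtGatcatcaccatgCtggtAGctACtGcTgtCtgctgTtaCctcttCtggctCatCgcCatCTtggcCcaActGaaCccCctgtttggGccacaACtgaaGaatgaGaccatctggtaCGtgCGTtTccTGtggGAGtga
Atp6v0e: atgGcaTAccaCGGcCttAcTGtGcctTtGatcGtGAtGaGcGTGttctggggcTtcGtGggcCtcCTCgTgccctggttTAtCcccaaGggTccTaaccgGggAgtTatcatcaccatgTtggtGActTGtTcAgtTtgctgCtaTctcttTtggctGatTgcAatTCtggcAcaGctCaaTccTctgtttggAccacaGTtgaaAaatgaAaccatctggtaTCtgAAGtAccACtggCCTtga
The sequences were identical at 171 positions (69.5%) and differed at 75, spread along their whole length. Of the 55 codons that differed, 25 changed the residue and 30 were synonymous, and 56 of 81 residues were the same (69.1%). The longest run of bases shared by any Atp6v0e and Atp6v0e2 transcripts was 15, much shorter than a sequencing read. Neither coding sequence had another match in the mm9 genome of at least 90% identity over 100 bases. Exonic bases outside the coding sequences were not searched for such matches.

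Atp6v0e2 was close to absent from the normal libraries and present in each CML library. LT-HSC replicate 1 and normal KLS- cells had a level of 0 RPKM, LT-HSC replicate 2 had 0.16 RPKM and ST-HSCs had 0.174 RPKM. On the CML side, the LT-CML replicates had 17.6 and 14.2 RPKM, ST-CML stem cells had 12.6 RPKM and CML KLS- cells had 2.60 RPKM. The CML stem libraries lay above the other 5 with no overlap, and the CML KLS- library lay between them and the normal libraries. These levels correspond to an estimated 7 reads in LT-HSC replicate 2, 6 in ST-HSCs, 665 and 473 in the LT-CML replicates, 430 in ST-CML stem cells and 85 in CML KLS- cells. A count of 0 allowed up to 3 reads, or 0.0809 RPKM in normal KLS- cells and 0.0822 RPKM in LT-HSC replicate 1. CML stem cells had a mean of 14.8 ± 2.52 RPKM and normal HSCs one of 0.111 ± 0.0968 RPKM (SD, n = 3 each), a ratio of 133. The lowest CML stem library was 72.4 times the highest normal HSC library. CML KLS- cells were at least 32.2-fold higher than normal KLS- cells, taken at the 3-read limit of that library, with 1 library on each side. Within CML, the mean of stem cells was 5.68 times the level in KLS- cells. In bulk RNA from sorted populations, fewer cells with a transcript and less transcript per cell cannot be told apart.

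**Figure D1:**
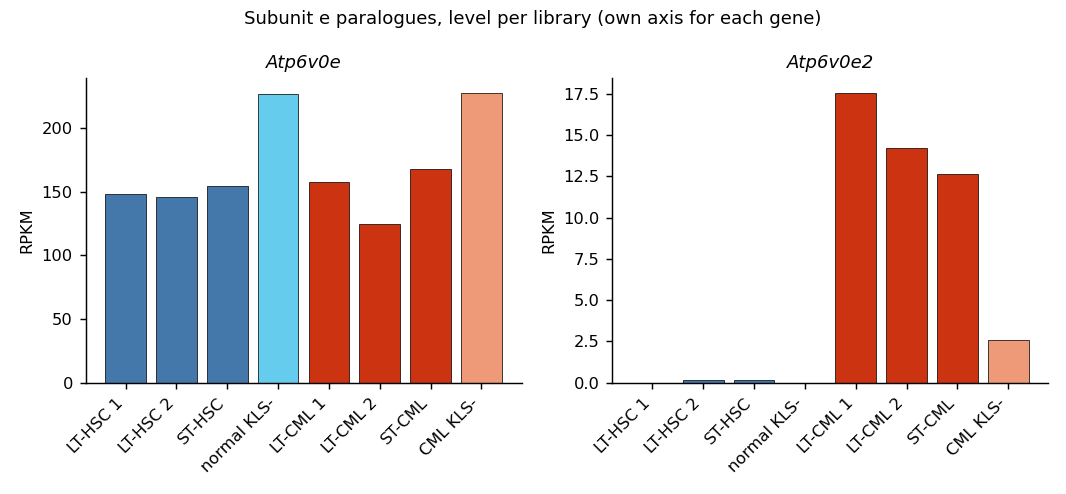
Level of Atp6v0e (left) and Atp6v0e2 (right) in RPKM, 1 bar for each of the 8 libraries, with a separate vertical axis for each gene. Atp6v0e stands between 124.5 and 227.9 RPKM in all libraries, whereas Atp6v0e2 reaches 12.6 to 17.6 RPKM in the 3 CML stem libraries, 2.60 RPKM in CML KLS- cells and at most 0.174 RPKM in the normal libraries.

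Atp6v0e remained the major subunit e transcript in all libraries. The LT-HSC replicates had 148.4 and 146.0 RPKM and ST-HSCs 154.7 RPKM, while the LT-CML replicates had 157.6 and 124.5 RPKM and ST-CML stem cells 168.2 RPKM. The CML range contained the normal range. Since RPKM is per length, the paralogues were summed, though the length used for each gene is not given in the sources used here. Shares between genes are therefore approximate. Atp6v0e2 made up 10.2% of the subunit e RPKM in LT-CML replicate 2, 6.98% in ST-CML stem cells and a share between these in LT-CML replicate 1. Its share was 1.13% in CML KLS- cells and at most 0.113% in a normal library. Atp6v0e was 10.1 times Atp6v0e2 by mean RPKM in CML stem cells. On the log2(RPKM + 1) scale, Atp6v0e2 lay 3.26 ± 0.33 below Atp6v0e in CML stem cells and 7.09 ± 0.12 below it in normal HSCs (SD, n = 3 each). Since Atp6v0e2 was close to absent from normal HSCs, the value there and its SD depend on the 1 added to each RPKM. The summed level of both paralogues was 138.7 to 180.8 RPKM in CML stem cells, a range that contained the 146.2 to 154.9 RPKM of normal HSCs.

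Whether the rest of V0 differed between CML stem cells and normal HSCs was tested with limma on log2(RPKM + 1) over 12561 genes. On this scale fold changes of low values come out too small. Of all genes, 2.34% were called (adjusted p under 0.05, Benjamini-Hochberg), and of the 7 other members that passed the filter on low values, 0 were called. At an unadjusted p under 0.05 limma gave 0 of the 7 and 1573 of the 12561 genes. Their log2 fold changes lay between -0.17 for Atp6v0a1 and 0.12 for Atp6v0c, with a median of -0.01 against -0.04 over all genes. The adjusted p of limma ranged from 0.738 for Atp6v0b to 0.990 for Atp6v0e. The same question in LT cells alone, LT-CML against LT-HSCs, had 1.73% of all genes called and 0 of the 7 members. At an unadjusted p under 0.05 limma gave again 0 of the 7, and 1452 of the 12561 genes. There the largest difference was that of Atp6v0a2, with 5.92 and 5.34 RPKM in LT-CML against 5.53 and 2.79 RPKM in LT-HSC libraries, or 0.41 on the log2 scale (SE 0.28, adjusted p = 0.675 from limma). This difference was 0.02 without LT-HSC replicate 2 (labelled 6 months) and 0.81 without LT-HSC replicate 1 (labelled 2 months). In both comparisons the sign of Atp6v0e depended on the scaling.

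**Figure D2:**
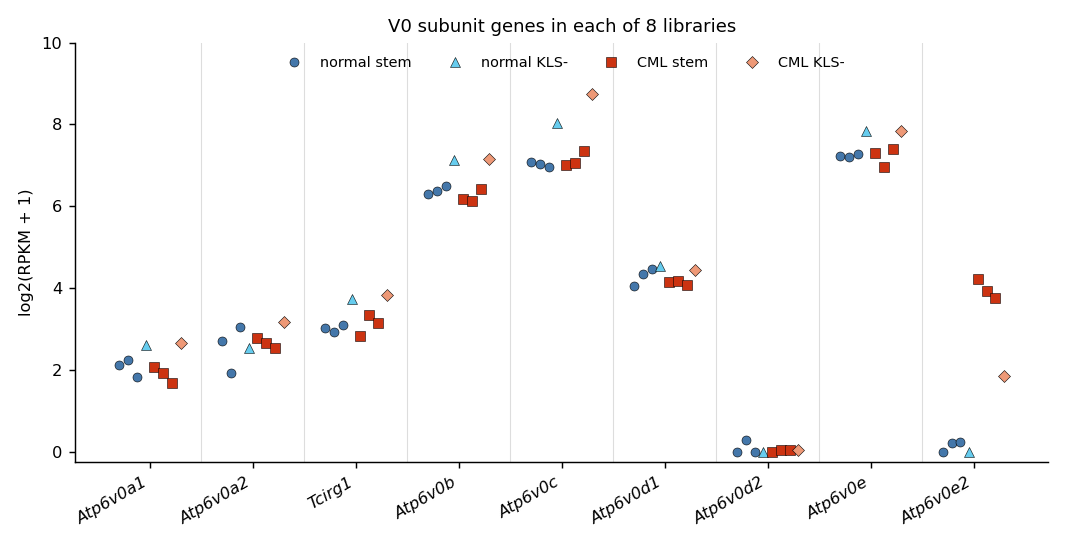
Level of each V0 gene as log2(RPKM + 1), with 1 point for each of the 8 libraries, by disease and cell stage. The CML stem squares stand apart from the normal stem circles for Atp6v0e2, and the KLS- triangle and diamond lie above all stem points for Atp6v0a1, Tcirg1, Atp6v0b, Atp6v0c and Atp6v0e.

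The members differed widely in level. Over the 6 stem libraries, Atp6v0e had a mean of 150 ± 14.7 RPKM and Atp6v0c one of 135 ± 13.9 RPKM (SD), and their ranges overlapped. Atp6v0b followed with 78.7 ± 7.71 RPKM, below each value of these, and then Atp6v0d1 with 17.6 ± 2.14 RPKM. The subunit a forms came next, with Tcirg1 at 7.39 ± 1.06, Atp6v0a2 at 5.29 ± 1.49 and Atp6v0a1 at 2.97 ± 0.56 RPKM. The range of Atp6v0a2 overlapped those of both other forms. Reads of Atp6v0c could not be assigned with certainty. Its coding sequence of 468 bases has a copy of 99.8% identity at chr6:37756086-37756553 and another of 97.2% at chr7:4364038-4364503. No such copy was found for the coding sequences of the other members. Atp6v0b shares 243 exonic bases (11.8%) with Gm12841, an annotated transcript on the opposite strand, and the use of strand in counting is not given in the sources used here.

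Atp6v0d2 was near the limit of detection. It was listed at 0 RPKM in LT-HSC replicate 1, ST-HSCs, normal KLS- cells and LT-CML replicate 1, at 0.0214 to 0.0224 RPKM (about 1 read) in the other CML libraries, and at 0.217 RPKM (about 14 reads) in LT-HSC replicate 2. It did not pass the filter and was not tested. Subunit d transcripts were therefore almost all Atp6v0d1, with a share of 98.9% to 100% by RPKM.

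Tcirg1 held the largest share of the subunit a RPKM in each library, 39.8% to 55.1%. Its lead over Atp6v0a2 was small in ST-HSCs (43.2% against 41.7%) and in LT-CML replicate 1 (39.8% against 38.5%), so their order there is uncertain. Atp6v0a2 held 21.2% to 41.7% and Atp6v0a1 14.4% to 28.3%, with each extreme in a normal HSC library. Atp6v0a4, the form of kidney and inner ear, was at most 0.147 RPKM. The shares of Tcirg1 in CML stem cells (39.8%, 52.6% and 51.9%) spanned all shares in normal HSCs.

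Of the V0 genes tested, most were higher in committed KLS- progenitors than in stem cells. This held for the proteolipids Atp6v0c and Atp6v0b, for Atp6v0e, and for the a subunits Tcirg1 and Atp6v0a1. Of all genes, 41.6% were called in this comparison, and 19.0% were called lower in stem cells. Of the 7 members tested, 5 were called lower in stem cells and 0 higher, with a median log2 difference (KLS- minus stem) of 0.66 against -0.08 over all genes.

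Atp6v0c had the largest difference. Its level was 123.0 to 161.9 RPKM in the 6 stem libraries (median 131), 261.7 RPKM in normal KLS- cells and 427.7 RPKM in CML KLS- cells. Both KLS- libraries lay above all stem libraries. The log2 difference was 1.31 (SE 0.158, adjusted p = 0.000589 from limma), and it was called in each of the 16 alternatives, between 0.73 and 1.61.

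Atp6v0b was 68.4 to 88.5 RPKM in stem cells (median 79.7), and 139.2 and 141.4 RPKM in normal and CML KLS- cells. Its log2 difference was 0.83 (SE 0.124, adjusted p = 0.00146 from limma), and the difference was 0.34 with quantile normalization (adjusted p = 0.0710). The ratio of Atp6v0c to Atp6v0b RPKM was 1.39 to 1.93 in stem cells, 1.88 in normal KLS- cells and 3.02 in CML KLS- cells.

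Tcirg1 was 6.11 to 9.13 RPKM in stem cells (median 7.39), and 12.3 and 13.2 RPKM in normal and CML KLS- cells (log2 difference 0.72, SE 0.156, adjusted p = 0.00727 from limma). Atp6v0a1 was 2.23 to 3.72 RPKM in stem cells (median 2.98), and 5.12 and 5.33 RPKM in KLS- cells (0.66, SE 0.167, adjusted p = 0.0134 from limma). For both, the KLS- libraries lay above all stem libraries. Atp6v0e was 124.5 to 168.2 RPKM in stem cells (median 152), and 227.4 and 227.9 RPKM in KLS- cells (0.61, SE 0.131, adjusted p = 0.00716 from limma). When either KLS- library was left out, all 3 lost their call with differences of similar size: 0.72 and 0.72 for Tcirg1, 0.61 and 0.60 for Atp6v0e, and 0.77 and 0.55 for Atp6v0a1 (without the normal and the CML library, respectively). Scaling the libraries to the same summed RPKM also ended the calls, with smaller differences of 0.39, 0.25 and 0.38. In each of these settings 2 of the 7 members, Atp6v0b and Atp6v0c, were called. With quantile normalization the difference of Atp6v0e was 0.02 (adjusted p = 0.924), and with upper-quartile scaling that of Atp6v0a1 was 0.48 (adjusted p = 0.0579).

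Atp6v0d1 and Atp6v0a2 did not pass the test. Atp6v0d1 was 15.6 to 21.0 RPKM in stem cells (median 16.8), and 22.4 and 20.8 RPKM in normal and CML KLS- cells (log2 difference 0.29, SE 0.136, adjusted p = 0.115 from limma). Atp6v0a2 was 2.79 to 7.33 RPKM in stem cells (median 5.44) and 4.82 and 8.05 RPKM in KLS- cells, with overlapping groups (0.25, SE 0.276, adjusted p = 0.492 from limma).

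**Figure D3:**
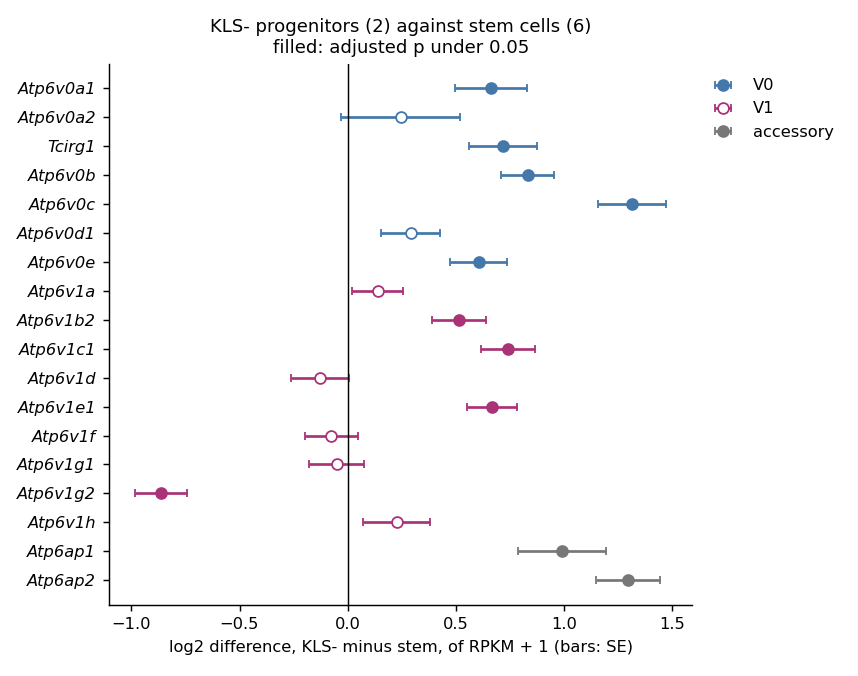
Log2 difference of RPKM + 1 between KLS- progenitors (2 libraries) and stem cells (6 libraries) for V0, V1 and accessory genes that passed the filter, with bars for the standard error and filled points for an adjusted p under 0.05. Of 7 V0 genes 5 are filled to the right of 0, from 0.61 for Atp6v0e to 1.31 for Atp6v0c, against 3 of 9 V1 genes, and Atp6v1g2 is filled on the left at -0.86. Among all genes tested, 41.6% were called and 19.0% were called lower in stem cells.

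The KLS- libraries also differed from the stem libraries as a whole. Their summed RPKM was 444650 and 465695, against 324114 to 372849 in stem cells, and the scalings moved the median of all genes (stem minus KLS-) from 0.08 to 0.21 with upper-quartile scaling and to 0.28 with equal summed RPKM. The calls split into 2850 higher and 2381 lower in stem cells in the data as deposited, 3796 and 1629 with upper-quartile scaling, 4590 and 1186 with equal summed RPKM, and 2065 and 2089 with quantile normalization. The 7 macrophage and osteoclast markers with values summed to 4.17 to 11.4 RPKM in stem cells and to 24.7 and 34.0 RPKM in normal and CML KLS- cells. Among them Csf1r was at most 1.21 RPKM in stem cells against 18.2 and 16.9 RPKM, and Emr1 at most 0.632 RPKM against 2.22 and 1.73 RPKM. Acp5 was 1.61 to 9.36 RPKM against 4.16 and 15.3 RPKM. Going the other way, Mmp9 was 0.154 to 3.45 RPKM in stem cells against 0.031 and 0.018 RPKM. Tm7sf4 likewise was 0.193 to 1.04 RPKM against 0 and 0.0282 RPKM. Ctsk was at most 0.222 RPKM in stem cells against 0 RPKM in KLS- cells, and Calcr at most 0.015 RPKM in all libraries. The part of these markers in the result was not tested. Of the 5 sorting markers, Kit was present in all libraries (78.4 to 213.3 RPKM), and Ly6a (Sca-1) and Slamf1 (CD150) followed the gates, with Ly6a at 72.4 to 152 RPKM in stem cells and 8.16 and 11.7 RPKM in KLS- cells, and Slamf1 at 10.7 to 35.5 RPKM in LT and 1.11 and 2.87 RPKM in ST cells. The other 2 did not: Flt3 (CD135) was 61.6 and 71.6 RPKM in the ST libraries, which were sorted as CD135-, above KLS- cells with at most 17.1 RPKM. Cd48 was 41.8 and 45.2 RPKM in the ST libraries sorted as CD48-, against 5.17 to 29.5 RPKM in LT and 174.3 and 128.8 RPKM in KLS- cells. The 5 granulocyte markers with values summed to 3855 RPKM in LT-HSC replicate 2, against 12.7 to 1003 RPKM in the other stem libraries. Without that library the number of members called was 0 between CML stem cells and normal HSCs and 5 between stem and KLS- cells.

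Disease and stage were next considered together. Between the 2 KLS- libraries, Atp6v0c was 1.63 times and Atp6v0a2 1.67 times higher in CML, whereas Atp6v0e, Atp6v0b, Atp6v0a1, Tcirg1 and Atp6v0d1 had ratios between 0.928 and 1.07. Each side of these ratios is 1 library. Against the mean of the 3 stem libraries of the same disease state, KLS- cells had 2.03 times the Atp6v0c RPKM in normal and 3.05 times in CML, and 1.52 times the Atp6v0e RPKM in both. A test of the difference itself was added after seeing the data (interaction of disease and stage, limma on all 8 libraries). Each KLS- arm is 1 library that is assumed to vary like the stem libraries. It called 0.00796% of all genes and 0 of the 7 members, with 0 at an unadjusted p under 0.05. For Atp6v0c the interaction was -0.59 (SE 0.27, adjusted p = 1.0).

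In the comparison of LT with ST cells, 4.08% of all genes were called. Of the 7 members other than Atp6v0e2 that passed the filter, 0 were called by limma. An unadjusted p under 0.05 was found for 2301 of the 12561 genes and for 1 of the 7 members. Atp6v0a1, with LT values of 2.79 to 3.72 RPKM against 2.53 and 2.23 RPKM in ST cells, was that member (0.33, SE 0.144, unadjusted p = 0.0488, adjusted p = 0.271 from limma). Its groups did not overlap, and how many of all genes separate in this way was not counted. Atp6v0e2, which passed the filter only through its CML libraries, is given without a test: its level was 17.6 and 14.2 RPKM in LT-CML and 12.6 RPKM in ST-CML stem cells.

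V1 genes were called between stages in both directions, about as often as genes in general. Of the 13 listed genes of the sector, 9 passed the filter. Of these, 3 were called lower and 1 higher in stem cells, where 41.6% of all genes were called and 19.0% were called lower. The median log2 difference (KLS- minus stem) of the 9 was 0.14. Atp6v1c1, whose subunit C takes part in joining V1 to V0, was 22.6 to 25.8 RPKM in stem cells and 46.3 and 37.8 RPKM in normal and CML KLS- cells (0.74, adjusted p = 0.00231 from limma). Atp6v1e1 of the peripheral stalk (0.67, adjusted p = 0.00268 from limma) and Atp6v1b2, a subunit of the catalytic head (0.52, adjusted p = 0.0111), were also called. Atp6v1b2 lost its call under all 3 other scalings. In the opposite direction, the stalk paralogue Atp6v1g2 was 1.54 to 2.47 RPKM in stem cells and 0.727 and 0.601 RPKM in KLS- cells (-0.86, adjusted p = 0.00103), whereas the abundant Atp6v1g1 was 113.1 to 148.2 RPKM and 109.8 and 133.9 RPKM and was not called. Atp6v1f had the highest mean of the sector, 186 RPKM, and Atp6v1e2 the lowest, with 0 RPKM in all libraries. Limma called 0 of the 9 between CML stem cells and normal HSCs (2.34% of all genes) and between LT and ST cells (4.08% of all genes). In both comparisons 0 of the 9 had an unadjusted p under 0.05, against 1573 and 2301 of the 12561 genes, respectively.

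Accessory and assembly genes were read in the same way, against the 41.6% of all genes called between stem and KLS- cells and the 19.0% called lower in stem cells. The accessory subunits Atp6ap1 (0.99, adjusted p = 0.00569 from limma) and Atp6ap2, also known as the prorenin receptor (1.30, adjusted p = 0.000462), were both higher in KLS- cells. Atp6ap2 was 37.7 to 49.6 RPKM in stem cells and 118.1 and 92.3 RPKM in normal and CML KLS- cells. Of 6 assembly genes tested, Tmem199 (0.86, adjusted p = 0.00453) and Rogdi (1.19, adjusted p = 0.000903) were higher in KLS- cells and Dmxl1 lower (-0.48, adjusted p = 0.0158). In the leukaemia comparison limma called 2.34% of all genes and 0 of the listed genes. An unadjusted p under 0.05 was found for 1573 of the 12561 genes and for 1 of the 6 assembly genes. It was Tmem199, which takes part in V0 assembly: it was 6.72, 7.17 and 8.32 RPKM in normal HSCs and 14.8, 11.5 and 13.5 RPKM in CML stem cells, without overlap (log2 fold change 0.76, SE 0.155, adjusted p = 0.0533 from limma). Of the other lists, Ctns, the lysosomal cystine exporter, and Mitf, a factor of the family that drives lysosomal genes, had an unadjusted p under 0.05. Ctns was 2.73 to 3.75 RPKM in normal HSCs and 4.32 to 5.94 RPKM in CML stem cells (0.54, SE 0.175, adjusted p = 0.232 from limma). Mitf was 1.95 to 2.15 RPKM and 2.40 to 3.52 RPKM in the same groups (0.36, SE 0.153, adjusted p = 0.390 from limma). Both were without overlap. How many of all genes lay without overlap was not counted, here or for Tmem199. Among 7 lysosomal membrane genes, Ctns (0.62, adjusted p = 0.0232), and Clcn7, the chloride-proton exchanger (0.50, adjusted p = 0.0488), were higher in KLS- cells, and neither was called with equal summed RPKM. Cd63 had the highest mean of that list (286 RPKM) and Mcoln1 the lowest (1.54 RPKM). Mitf was lower in KLS- cells (-0.49, adjusted p = 0.0248), and the other 3 factors of its family were not analysed here. Of these 12 listed genes called outside V0, Atp6v1g2, Atp6ap2 and Rogdi were called in all 16 alternatives. With quantile normalization, 5 were not called (Atp6v1b2, Atp6v1e1, Atp6ap1, Dmxl1 and Mitf), and Clcn7 was called in 4 of the 16.

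Promoter sequences were inspected for CACGTG, the core of the element through which factors of the Mitf and Tfeb family bind lysosomal genes. The window ran from 250 bases before to 50 after the RefSeq start site. CACGTG, which reads the same on both strands, occurred in a window of 3 of the 7 matched members, against 9.65% of the 13596 genes with a promoter and a value. These were Atp6v0b with 2 matches starting 36 and 18 bases before the start site, Atp6v0d1 with 1 match, and Atp6v0e with 1 match from base 4 of the transcript. Of 9 matched V1 genes, 1 had a match. The windows of both subunit e paralogues and of Atp6v0b are shown from 170 bases before to 30 after the start, with the match in capitals, because the paralogues differ there. Their mm9 positions are chr6:48487398-48487597 (plus strand) for Atp6v0e2, chr17:26813171-26813370 (plus) for Atp6v0e and chr4:117559905-117560104 (minus) for Atp6v0b.
Atp6v0e2: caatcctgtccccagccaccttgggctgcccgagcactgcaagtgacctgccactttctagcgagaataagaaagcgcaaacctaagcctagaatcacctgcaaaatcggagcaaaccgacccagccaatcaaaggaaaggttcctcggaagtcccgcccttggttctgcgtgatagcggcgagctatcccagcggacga
Atp6v0e: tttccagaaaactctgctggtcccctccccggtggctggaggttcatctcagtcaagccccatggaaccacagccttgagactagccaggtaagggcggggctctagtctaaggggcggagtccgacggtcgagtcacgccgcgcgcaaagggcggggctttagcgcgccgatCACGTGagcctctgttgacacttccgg
Atp6v0b: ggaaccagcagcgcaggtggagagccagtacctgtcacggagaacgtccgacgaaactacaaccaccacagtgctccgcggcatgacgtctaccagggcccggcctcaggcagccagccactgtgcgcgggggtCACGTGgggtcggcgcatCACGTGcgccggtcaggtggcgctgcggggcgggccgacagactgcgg
The Atp6v0e2 window had 56.0% G and C and no match, which says only that these letters are not in it.

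Of the genes around Atp6v0e2, 4 passed the filter. Between CML stem cells and normal HSCs limma called 0 of these and 2.34% of all genes. At an unadjusted p under 0.05 limma gave 0 of the 4 and 1573 of the 12561 genes. Of the 3 protein-coding genes nearest on each side, Sspo and Rarres2 were at most 0.0776 RPKM. Lrrc61, 13.0 kb downstream, was 1.73 to 2.54 RPKM in normal HSCs and 1.60 to 1.92 RPKM in CML stem cells (log2 fold change -0.14, adjusted p = 0.779 from limma). Krba1 (0.23, adjusted p = 0.710 from limma) and Gm5111 (-0.16, adjusted p = 0.923) were not called either, and their ranges in CML stem cells and normal HSCs overlapped. Zfp467 was 2.26 to 3.17 RPKM in normal HSCs and 1.08 to 2.20 RPKM in CML stem cells, lower without overlap, and was not called (-0.42, adjusted p = 0.460 from limma). The number of all genes that lay without overlap was not counted. Gm5111 (adjusted p = 0.000376 from limma), Zfp467 (adjusted p = 0.000746) and Krba1 (adjusted p = 0.00738) were higher in stem than in KLS- cells. That comparison called 41.6% of all genes.

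**Figure D4:**
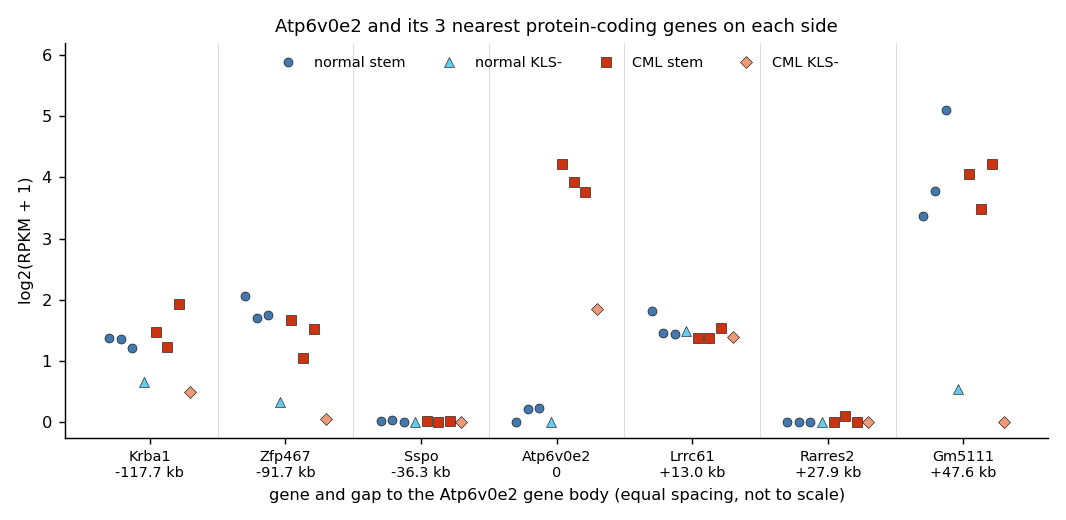
Level as log2(RPKM + 1) of Atp6v0e2 and of the 3 nearest protein-coding genes on each side in each of the 8 libraries, ordered along the chromosome with equal spacing and the gap in kb under each name. CML stem squares and normal stem circles are apart for Atp6v0e2 with the squares higher. The squares lie below the circles for Zfp467, and for the other 5 neighbours both overlap or lie near 0.

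The genes with the profile most like that of Atp6v0e2 were sought among 7518 genes by the Pearson correlation of log2(RPKM + 1) over 8 libraries, a measure that follows the split between CML stem and other libraries. They were H2-T24 (0.992), Trim21 (0.983), Ubtd2 (0.970), Gm7035 (0.969) and H2-T3 (0.965). H2-T24, a non-classical class I histocompatibility gene, was 54.4, 38.6 and 38.7 RPKM in CML stem cells, 6.91 to 7.14 RPKM in normal HSCs and 13.0 RPKM in CML KLS- cells. Trim21, an antibody receptor and ubiquitin ligase of the cytosol, was 9.46 to 11.9 RPKM, 0.824 to 1.01 RPKM and 5.38 RPKM in the same groups. Both had the order CML stem, CML KLS-, normal of Atp6v0e2 itself. By Spearman correlation 0 of the 5 ranked among the first 5. H2 genes have close relatives between which reads can be split, so their levels are uncertain.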

How the data were processed

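The 8 RNA-seq libraries hold sorted bone marrow populations of normal and CML-affected mice. The authors made the libraries from total RNA with an oligo-dT-primed ultra-low-input kit, mapped paired-end reads to mm9 and deposited 1 RPKM value per gene (reads scaled by exon length and by the total of mapped reads). The gene models, the counting rule and the use of strand are not given in the sources used here. The V0 members and the other gene lists were chosen with earlier results of these data known.

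RPKM values are not counts, so log2(RPKM + 1) was compared with limma (version 3.58.1, R 4.3.3, moderated with a mean-dependent trend). The 12561 genes whose RPKM summed to over 1 across the libraries were tested. P-values were adjusted by Benjamini-Hochberg over all of them, and genes under 0.05 are called. CML stem cells (3 libraries) were compared with normal HSCs (3), LT-CML with LT-HSCs (2 against 2, in a fit of all 8), stem (6) with KLS- libraries (2), and LT (4) with ST libraries (2). Disease was a covariate in the last pair. Gene-wide steps were tested on simulated data. Apart from the labelled ages of the LT-HSC libraries (2 and 6 months), nothing says that replicates are separate mice. P-values therefore measure the spread between these libraries, which for LT-HSCs includes that difference in age.

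Depth was recovered from the RPKM steps that 1 read gives, at 17.77 to 23.85 M reads. Between 70.0% and 75.0% of low genes with 1 transcript lay within 0.05 of a whole read. Read numbers are therefore estimates, and limits based on them cover counting error only. Since part of the values did not come out whole, no count test was run.

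Genes were placed on mm9 with GENCODE M1, coding sequences came from its transcripts, and promoters came from RefSeq (GRCm38.p6, 7 of 9 members matched) and were located in mm9 by exact match. Copies of each coding sequence were searched with BLAST+ 2.17.0 (at least 90% identity over 100 bases). All members were named, with V1, accessory, assembly, lysosomal and marker genes from set lists (those called, and the highest and lowest), the 3 protein-coding genes nearest to Atp6v0e2 on each side, and the 5 genes with the most similar profile. Alternatives covered the pseudocount, the filter, the scaling, the covariates and each library left out.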

Additional observations from a re-analysis of the deposited data

How the results depend on the processing

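The number of genes called moved by over 1.5 times under several settings. Between CML stem cells and normal HSCs 294 genes were called, 173 with no filter on low values, 543 with LT or ST as a covariate, 776 in an additive fit of all 8 libraries, and 115 to 217 with 1 library left out. Between LT-CML and LT-HSCs 217 were called, 0 with no filter (limma, 1881 at an unadjusted p under 0.05), and 6 to 74 with 1 library left out. Between stem and KLS- cells 5231 were called, and 1750 to 5275 with 1 library left out, the lowest without CML KLS- cells. Between LT and ST cells 513 were called, 15 with no filter, 212 with no covariate, and 55 to 712 with 1 library left out, the lowest without ST-HSCs. A library left out leaves fewer samples, and the cause of the other moves was not tested. Where 1 library of a population was left, it was assumed to vary like the others.

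In none of these settings was any of the 7 tested members other than Atp6v0e2 called between CML stem cells and normal HSCs, between LT-CML and LT-HSCs, or between LT and ST cells. Between stem and KLS- cells the 5 calls became 4 with upper-quartile scaling, 3 with quantile normalization, 2 with equal summed RPKM (a setting chosen after seeing the data), and 2 to 5 with 1 library left out. The log2 fold change of Atp6v0e2 between CML stem cells and normal HSCs, given without a test, was 3.82, 6.26 with a pseudocount of 0.1, 4.64 with 0.5 and 3.33 in the fit of all libraries. The log2 ratio of Atp6v0e2 to Atp6v0e in normal HSCs was -7.09, -9.60 with a pseudocount of 0.1, -7.21 with quantile normalization, and -7.14 to -7.02 with 1 library left out. In CML stem cells it stayed between -3.37 and -3.07 with 1 library left out. Of the 5 genes most like Atp6v0e2, 0 were among the first 5 by Spearman correlation.

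Of 456 member fold changes under alternatives, 26 had the opposite sign, and 0 of these were called. Between CML stem cells and normal HSCs Atp6v0e was 0.12 with quantile normalization, 0.076 with upper-quartile scaling and 0.069 with equal summed RPKM. With 1 library left out it was -0.095 to 0.12, Atp6v0a2 was -0.22 to 0.35 and Tcirg1 -0.036 to 0.22. Between LT-CML and LT-HSCs Atp6v0c was 0.051 with quantile normalization and 0.045 with equal summed RPKM, Atp6v0e 0.019 with quantile normalization and Atp6v0d1 0.018 with equal summed RPKM. With 1 library left out Atp6v0c was -0.053 to 0.0057, Atp6v0e -0.24 to 0.10, Atp6v0d1 -0.20 to 0.10 and Tcirg1 -0.15 to 0.36. For stem minus KLS- cells Atp6v0a2 was 0.056 and Atp6v0d1 0.046 with equal summed RPKM, and Atp6v0a2 was -0.51 to 0.020 with 1 library left out. For LT minus ST cells Atp6v0e2 was -0.22 with a pseudocount of 0.1. With 1 library left out Atp6v0e2 was -0.12 to 0.30, Atp6v0a2 -0.74 to 0.18, Tcirg1 -0.20 to 0.016, Atp6v0c -0.32 to 0.10 and Atp6v0d1 -0.26 to 0.066.

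No paired analysis was possible because the labels give no replicate numbers that the groups share. Below about 3 reads, 0.0687 to 0.0922 RPKM for Atp6v0e2, a level could not be told from 0.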
